A study of Mus musculus with 14 samples.

Results

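The entry of mouse embryonic stem cells (ESCs) into S phase is regulated by a small group of genes, of which 10 were examined here: the CDK inhibitors Cdkn1a, Cdkn1b and Cdkn1c, the RB family members Rb1, Rbl1 and Rbl2, the kinases Lats1 and Lats2, and the cyclins Ccne1 and Ccnd1. They were chosen by gene symbol, not by a measured value, as cell cycle brakes listed as miR-290 family targets, with related cyclin and RB genes. All 10 were present among the 22376 genes of the RNA-seq table. The same symbols were sought in 2 tables of Degradome-seq pile-up sites, where 0 of 3919 sites in the Drosha table and 0 of 4666 sites in the Dicer table named any of them. Degradome-seq captures polyA RNA with a 5′ monophosphate, so that the first base of a read marks a cut or decayed end, and a pile-up site is a position where such reads stack.

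All Drosha cells were Drosha fl/fl ESCs with CreERT2 in the Rosa26 locus. Drosha-deficient cells had received 100 nM 4-hydroxytamoxifen for 72 h, followed by 48 h without it, and control cells received none, so that loss of Drosha and exposure to the drug cannot be told apart. Dicer cells were Dicer fl/fl ESCs transduced with a retrovirus carrying GFP alone (control) or GFP with Cre (Dicer-deficient). Sorting of GFP+ cells took place on day 3, and the cells were harvested 2 days later. Each of the 4 Degradome-seq groups had 2 libraries, and RNA-seq was performed on 3 control and 3 Drosha-deficient libraries. The labels do not state whether libraries came from separate cultures, so that p-values measure only the spread between libraries.

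Progression from G1 to S phase requires cyclin D with CDK4 or CDK6, and cyclin E with CDK2, to phosphorylate the RB proteins, which then release E2F transcription factors. The CDK inhibitors p21 (Cdkn1a), p27 (Cdkn1b) and p57 (Cdkn1c) restrain the cyclin E and CDK2 complex, and the Hippo kinases LATS1 and LATS2 restrain the coactivators YAP and TAZ. ESCs have a short G1 phase, and the miR-290 to miR-295 cluster, abundant in these cells, is known for repressing brakes on this transition through a shared seed, the bases near the 5′ end of a miRNA that pair with its target.

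The seeds are shown first because they define which bases were sought in the 10 genes. Mature sequences are from RefSeq (GRCm38.p6), written 5′ to 3′, with bases 2 to 8 in capitals.
mmu-miR-290a-3p: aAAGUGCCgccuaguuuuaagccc
mmu-miR-291a-3p: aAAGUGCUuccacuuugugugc
mmu-miR-291b-3p: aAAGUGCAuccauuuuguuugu
mmu-miR-294-3p: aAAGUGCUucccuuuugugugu
mmu-miR-295-3p: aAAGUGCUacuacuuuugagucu
mmu-miR-302b-3p: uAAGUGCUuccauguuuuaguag
mmu-miR-17-5p: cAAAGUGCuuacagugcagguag
The first 6 share AAGUGC and differ at base 8, which was U in miR-291a-3p, miR-294-3p, miR-295-3p and miR-302b-3p, C in miR-290a-3p and A in miR-291b-3p. In miR-17-5p the same run is shifted by 1 base, as it is in miR-20a-5p, miR-93-5p and miR-106b-5p. miR-292a-3p and miR-302a-3p were not in the sequence table.

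A match was counted in the longest annotated 3′ UTR (GENCODE vM21, GRCm38) where the transcript strand read AGCACTT (pairing with a seed ending in U), GGCACTT (ending in C) or TGCACTT (ending in A), or held GCACTTA. Only the transcript strand was searched. Where a 7-base match to bases 2 to 8 was followed by A, both forms overlap and were counted once, as an 8-base match. Of the 10 genes, 7 held at least 1 match (70%), with 12 matches in all, whereas 27.9% of the 21021 protein-coding genes with a 3′ UTR did. Pooled over their length, the 10 UTRs held 0.650 matches per kb and all UTRs 0.278. The UTRs of the 10 genes were longer, with a median of 1620 nt against 961 nt. Because the genes were chosen as known targets of this seed family or their relatives, a higher share than among all genes follows from the choice and is not a result. A match is a description of the sequence, and repression was not measured here.

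All 12 matches are shown because they differ in length, position and surroundings. The match is in capitals, and the number after each gene is the base of the 3′ UTR at which GCACTT starts, counted from 1 after the stop codon.
Cdkn1a 436: tcctcagacctgaatAGCACTTtgga
Cdkn1a 757: caggaggcatatctaGGCACTTgccc
Cdkn1a 1108: accgtgggtgtcaaAGCACTTAgtgg
Rb1 844: acagtacaacccaagTGCACTTttta
Rbl1 23: cctttgcctgatcaaAGCACTTttgg
Rbl2 705: acctgtgtaattggtGGCACTTtatg
Rbl2 766: ctgtatatttatgatGGCACTTtcta
Rbl2 1385: gtatttttcaataaAGCACTTAtaaa
Lats1 1147: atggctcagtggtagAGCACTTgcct
Lats2 196: tacagtatggaaagAGCACTTAtttt
Lats2 295: tgtgttgtatctgatAGCACTTgtcc
Ccnd1 925: accattccatttcaaAGCACTTttgg

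Among the CDK inhibitors, Cdkn1a held 3 matches and Cdkn1b and Cdkn1c held none. The 3 windows of Cdkn1a lie on the plus strand at chr17:29099813-29099838, chr17:29100134-29100159 and chr17:29100486-29100511 in a UTR of 1334 nt, and only the last is an 8-base match. Of 1380 UTRs within 10% of that length, 30.4% held at least 1 match and 0.652% held at least 3. Cdkn1b has a 3′ UTR of 3439 nt, a length at which 61.5% of UTRs held a match. The 3′ UTR of Cdkn1c is short at 688 nt, a length at which 15.3% did.

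Each RB family gene held a match. Rbl2 held 3, at chr8:91123135-91123160, chr8:91123196-91123221 and chr8:91123816-91123841 on the plus strand. Of 1397 UTRs within 10% of its 1398 nt, 0.859% held as many. The last of the 3 is the 8-base match, whose GCACTT starts 13 nt before the annotated end of the UTR, and the letters AATAAA, the usual polyadenylation signal, overlap its first base. Rb1 held 1 match in 1709 nt (chr14:73196358-73196383, minus strand), which of the seeds searched fits that of miR-291b-3p, and 36.1% of UTRs of similar length held at least 1. Rbl1 held 1 match in 1613 nt (chr2:157147474-157147499, minus strand), at base 23 after the stop codon, where 36.5% of UTRs of similar length did.

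The Hippo kinases held 1 and 2 matches. The match in Lats1 (chr10:7714141-7714166, plus strand) lies in a UTR of 3450 nt, a length at which 61.6% of UTRs held one. All 26 bases of that window were repeat-masked in the reference, and the window had 4 exact copies in the genome, whereas each of the other 11 windows had 1 copy and between 0 and 10 masked bases. Lats2 held 2 matches within 100 nt of each other (chr14:57691082-57691107 and chr14:57690984-57691009, minus strand), the upstream one an 8-base match. At its length of 1626 nt, 6.72% of UTRs held at least 2.

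The cyclins stood apart from each other. Ccnd1 held 1 match (chr7:144931673-144931698, minus strand) in 2676 nt, a length at which 51.1% of UTRs held one, and the 531 nt of Ccne1 held none. Matches to the miR-17 family (GCACTTT on the transcript strand) numbered 6, in Cdkn1a, Rb1, Rbl1, Rbl2 (2 matches) and Ccnd1, and each overlapped a miR-290 family match shown above. Such a match was present in 11.8% of all genes with a 3′ UTR.

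**Figure D1:**
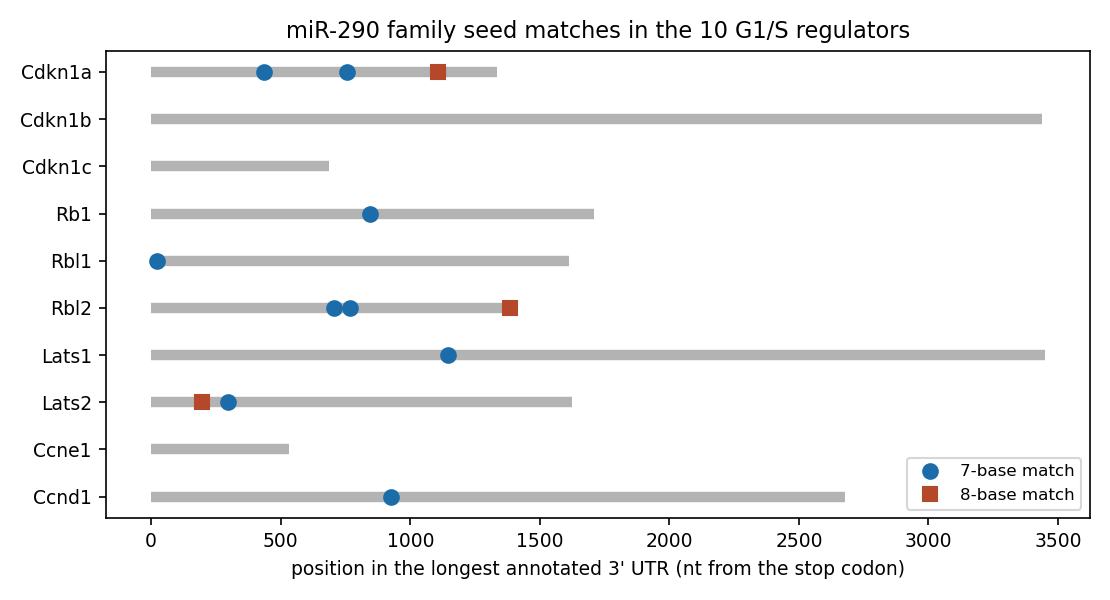
Positions of miR-290 family seed matches in the longest annotated 3′ UTR of each of the 10 genes, in nt from the stop codon, with grey bars for the UTR, circles for 7-base matches and squares for 8-base matches. Cdkn1a and Rbl2 held 3 matches each, and Cdkn1b, Cdkn1c and Ccne1 held none.

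Among 44 other genes of the G1/S and Hippo pathways, listed as cyclins, CDKs, INK4 inhibitors, E2F and DP factors, Hippo components and regulators of these, 19 held a match (43.2%), at 0.365 per kb. At least 3 matches were present in 5 of them, namely Cdk6, E2f2, Mob1b, Tead1 and Wwtr1, against 2.91% of all genes. These 5 have UTRs of 3020 to 10217 nt, far above the median of all genes, and the shares of all genes given for this list are not matched for length. An 8-base match was present in 3 of the 10 genes (Cdkn1a, Rbl2 and Lats2), in 7 of the 44 other genes and in 6.75% of all genes. The partners of the inhibitors also held matches, 2 in Cdk2 and 2 in Cdk4.

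RNA levels of the 10 genes were available as the authors' mean over the RNA-seq libraries, with no value per library, so that the levels below have no SD and the change on loss of Drosha is not given here. Without a spread, neighbouring genes in the order cannot be called different. To compare genes, levels were divided by the length of the longest annotated transcript and are in log2 CPM per kb. The median of the 10 genes was 3.38 log2 CPM per kb, against 2.61 for 15459 protein-coding genes and 3.95 for the 43 other G1/S and Hippo genes in the table (Lin54 was not in it). With the median in place of the longest transcript length, the median of the 10 genes was again 3.38, that of all protein-coding genes was 3.11 and that of the 43 genes 4.36.

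Cdkn1a, which encodes p21, was the most abundant of the 10 genes at 6.90 log2 CPM per kb, above 96.8% of protein-coding genes (chr17:29090976-29100727). Its mean level before division by length was 7.96 log2 CPM, or 249 CPM. Cdkn1b (p27, chr6:134920401-134925513) followed among the inhibitors at 4.29 log2 CPM per kb, and Cdkn1c (p57, chr7:143458339-143461050) was lowest of these at 1.47. The INK4 inhibitors act on CDK4 and CDK6. Their genes had 0.89 (Cdkn2c), 1.42 (Cdkn2b), 3.96 (Cdkn2d) and 4.25 (Cdkn2a) on the same scale. These are levels of whole genes, so the transcripts of Cdkn2a were not told apart.

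The RB family lay close together. Rbl1 (p107, chr2:157145893-157204534) had 3.53 log2 CPM per kb, Rb1 (chr14:73183673-73325822) 3.23 and Rbl2 (p130, chr8:91070057-91123844) 2.92, above 54.0% to 62.5% of protein-coding genes. The genes of the E2F family, E2f1 to E2f8, were spread more widely, from 1.10 log2 CPM per kb for E2f2 to 6.01 for E2f4.

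The LATS kinases were far apart. Lats1 (chr10:7681214-7716460) had 2.40 log2 CPM per kb, whereas Lats2 (chr14:57689662-57758388) was the lowest of the 10 genes at −1.90, above only 16.6% of protein-coding genes. The mean level of Lats2 was 0.48 log2 CPM, or 1.39 CPM, and it was the only one of the 10 genes under 1 log2 CPM. With the median length over annotated transcripts in place of the longest, the level of Lats2 was 0.68 log2 CPM per kb, since its median transcript has 866 nt and its longest 5191 nt. The Hippo coactivator Yap1 had 5.42 log2 CPM per kb.

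Ccne1, the CDK2 partner cyclin E1 (chr7:38097984-38107534), was second of the 10 genes at 5.58 log2 CPM per kb, above its paralog Ccne2 at 3.18. Ccnd1, cyclin D1 (chr7:144929931-144939925), had 4.30, between the other D cyclins Ccnd3 at 7.25 and Ccnd2 at 0.16. Of their kinases, Cdk4 had 7.75 log2 CPM per kb and Cdk2 5.84, whereas Cdk6 had 1.29. The longest transcript of Cdk6 has 11525 nt, and with the median transcript length its level was 5.33.

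**Figure D2:**
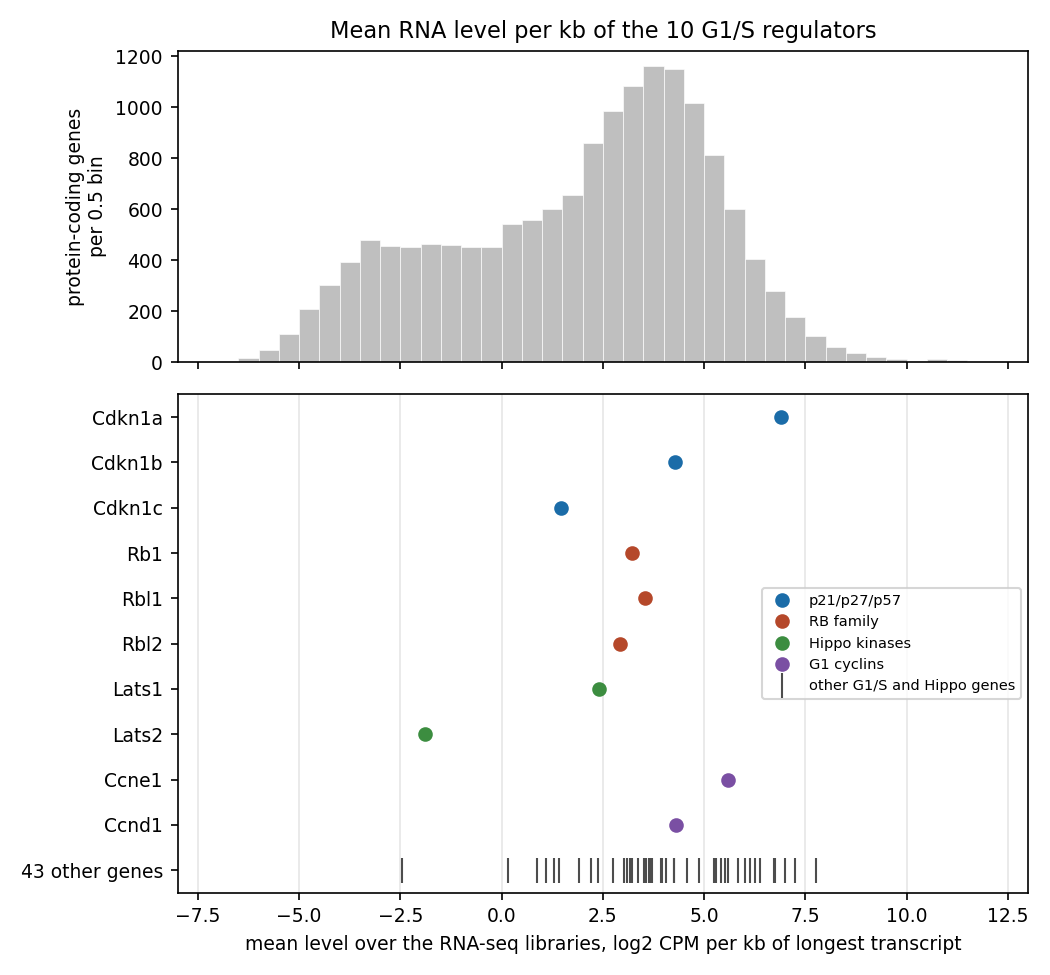
Mean RNA level in log2 CPM per kb of the longest transcript for the 10 genes (points, coloured by role) and 43 other G1/S and Hippo genes (ticks), below a histogram of 15459 protein-coding genes in bins of 0.5. Cdkn1a lies at 6.90 and Lats2 at −1.90, and the 3 RB family genes lie between 2.92 and 3.53.

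All 10 ESC markers examined were present, from 5.96 (Lin28a) to 10.19 log2 CPM (Dppa5a). Cells were grown on embryonic fibroblasts, and the 10 fibroblast markers ranged from −1.94 (S100a4) to 11.20 log2 CPM (Fn1), with Col1a1 at 6.60 and Lum at −0.63. Their part in the levels of the 10 genes was not tested. The targeted genes had mean levels of 6.58 (Drosha) and 7.27 log2 CPM (Dicer1) over all RNA-seq libraries, which do not check the deletion. If the smallest step between RPM values stands for 1 read, the Degradome-seq libraries held an estimated 28682304 to 34547610 mapped reads. However, the lowest value above 0 was 2 steps in some libraries, and every library also listed values of 0. With 1 step taken as 1 read, a floor of 3 reads corresponded to 0.0868 to 0.105 RPM, which covers counting error only.

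The absence of the 10 genes among sites that name a gene was compared with other genes of similar level. Of 6259 protein-coding genes with at least 5 log2 CPM, 6.18% were named by a site of the Drosha table and 6.98% by a site of the Dicer table, so that most genes at these levels were named by none. Of the 10 genes, 8 reached this level. Among the other G1/S genes, 0 of 43 were named in the Drosha table and 1 of 43, Cks1b, in the Dicer table.

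Looking up positions instead of names, which goes beyond the rule by which the genes were chosen, placed 3 sites of the Drosha table inside the 10 genes, all on the strand opposite to the gene. These lay in Rbl2, Ccne1 and Ccnd1 and, in the Dicer table, in Rbl2 and Ccnd1. A site on the opposite strand was present in 3 of the 10 genes (30%) in the Drosha table and in 2 (20%) in the Dicer table, against 8.95% and 8.13% of all 15459 protein-coding genes. Of the 8 genes with at least 5 log2 CPM, 37.5% and 25% held one, against 17.6% and 14.4% of the 6259 genes at that level. The reads at these sites were aligned to the strand opposite to that of the 10 mRNAs, and their origin was not tested.

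The surroundings of each site are shown because the last bases of the ligated RNA linker are UCU, which the genome can also hold just before a site. Each window runs from 10 bases before the site to 20 bases from it on (GRCm38), in the direction of the reads, with the 3 bases before the site in capitals.
Rbl2 site: ccaaagtTTCactgggtggtggtggcgcac
Ccne1 site: tctgcgaTCTgcacgaagacctgctgtggg
Ccnd1 site: tctcttaCCTccagcatccaggtggccacg
Before the Ccne1 site the genome read TCT, as the linker ends, and before the sites in Rbl2 and Ccnd1 it did not. The likeness at Ccne1 ran past the 3 bases in capitals, since the genome read CGATCT and the linker ends in CGAUCU. How many sites share this longer run was not counted. Of all sites placed, 30.8% in the Drosha table and 17.4% in the Dicer table were preceded by TCT, and among sites that name no gene 35.7% and 19.2%. The part of this feature in the values was not tested. The first 30 bases of each of the 3 sites had 1 copy in the genome, and 23 of the 30 bases shown for Rbl2 were repeat-masked.

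In the Drosha comparison, 1473 of 3919 sites were lower in Drosha-deficient cells (37.6%) and 375 were higher (9.57%), at an FDR under 0.05 and a log2 difference past 1.5 by limma on log2(RPM + 0.1). The median site was lower by 0.93 on the log2 scale. By the paper's methods, a pile-up site is a position that the authors' classifier called in both control libraries. The lowest value listed in each Drosha control library was 0 RPM. Both tables list more sites than the paper reports as pile-up sites, so not every listed site belongs to that reported set. Which of the listed sites met the rule was not checked, and the shares of called sites are over all listed sites. The part of a choice of sites by control libraries in the excess of lower calls was not tested. When each library was centred on its median site, differences shifted by 0.59 upwards, and 871 sites were lower and 602 higher, a share of lower calls of 59.1% in place of 79.7%.

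The site within Rbl2 (chr8, position 91116306, minus strand) lies in an intron of Rbl2, in an exon of the lncRNA Gm45464 that the table names there. It had 1.99 and 1.13 RPM in the control libraries and 4.10 and 3.27 RPM in the Drosha-deficient libraries. Both deficient libraries were above both controls, as at 21.2% of all sites of the Drosha table, at 3.68 ± 0.59 against 1.56 ± 0.61 RPM (SD, n = 2). This was a log2 difference of 1.23 with an SE of 0.43 (limma, FDR = 0.0186), below the threshold of 1.5, so the site was not called. With the libraries centred it was 1.82 (limma, FDR = 0.00125) and was called higher. The FDR by limma was no longer under 0.05 without Drosha control replicate 1 (log2 difference 1.61), without Drosha control replicate 2 (0.85) and without Drosha-deficient replicate 1 (1.07).

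In the Dicer table the same site was at 1.97 and 2.68 RPM in control cells and, after Cre, at 1.35 and 1.44 RPM. Here both deficient libraries were below both controls, as at 27.4% of all sites of the Dicer table. The log2 difference was −0.68, with an SE of 0.43 and an FDR of 0.576 by limma. The Drosha effect minus the Dicer effect was 1.91 on the log2 scale, with an SE of 0.61 and a 95% interval of 0.53 to 3.30. It did not pass the test of the difference, with an FDR of 0.0762 in the limma interaction over 2595 shared sites, of which 124 (4.78%) passed. With the libraries centred the difference was 2.43, and the limma FDR was 0.0281. The test was not passed with a pseudocount of 1 RPM (1.35, limma FDR = 0.0692) or at sites with a mean of at least 0.5 RPM (limma FDR = 0.0758). Over the 8 libraries left out in turn, the difference ranged from 1.53 to 2.30.

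The site within Ccne1 (chr7, position 38099479, plus strand) lies opposite a coding exon, 8055 nt from the start of the gene. Its values were 2.02 and 2.09 RPM in the control libraries, which were close together, and 0.742 and 0.348 RPM in the Drosha-deficient libraries. The groups did not overlap, at 2.05 ± 0.046 and 0.545 ± 0.28 RPM (SD, n = 2). Both controls were above both deficient libraries at 59.9% of all sites of the Drosha table. The log2 difference at the Ccne1 site was −1.81 with an SE of 0.49 (limma, FDR = 0.0044), so the site was called lower. It was not among the sites of the Dicer table. The call was lost with centred libraries (−1.22), with a pseudocount of 1 RPM (−0.995), without Drosha control replicate 1 (−1.83, limma FDR = 0.0732), without Drosha control replicate 2 (−1.79, limma FDR = 0.0714) and without Drosha-deficient replicate 2 (−1.36).

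The site within Ccnd1 (chr7, position 144939498, plus strand) lies opposite a coding exon, 427 nt from the start of the gene. In the Drosha table it had 4.53 and 3.76 RPM in the control libraries and 1.65 and 0.869 RPM in the Drosha-deficient libraries. Both deficient libraries were below both controls, as at 59.9% of all sites of the Drosha table, at 1.26 ± 0.55 against 4.15 ± 0.54 RPM (SD, n = 2). The log2 difference was −1.70 with an SE of 0.43 (limma, FDR = 0.00277), so the site was called lower. The call was lost with centred libraries (−1.11), with a pseudocount of 1 RPM (−1.21), without Drosha control replicate 1 (−1.57, limma FDR = 0.0905), without Drosha control replicate 2 (−1.83, limma FDR = 0.0578) and without Drosha-deficient replicate 2 (−1.28).

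The Dicer libraries gave 6.28 and 1.89 RPM in control cells and 5.14 and 2.35 RPM in Dicer-deficient cells at the Ccnd1 site. The groups overlapped, and the log2 difference of 0.0063 had an interval of −1.61 to 1.62 (limma, FDR = 0.997). The Drosha effect minus the Dicer effect at Ccnd1 was −1.71 with an SE of 0.88 and did not pass the test (limma, FDR = 0.182). Without Dicer control replicate 1 it was −2.55 (limma FDR = 0.0291), without Dicer control replicate 2 it was −0.87 (limma FDR = 0.444), and over the other 6 libraries left out in turn it ranged from −2.26 to −1.16 and did not pass.

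**Figure D3:**
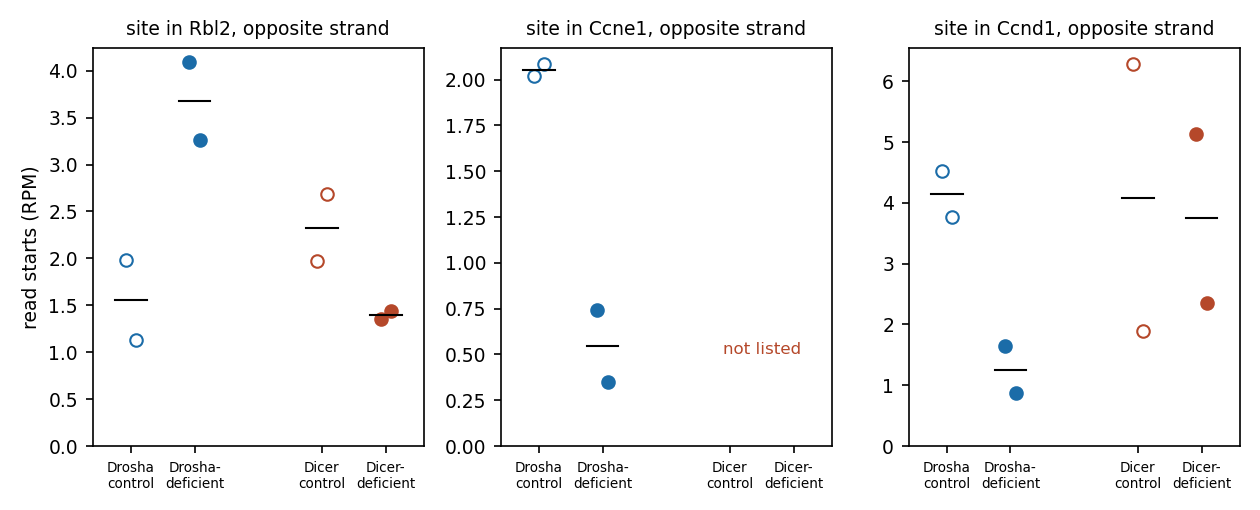
Read starts in RPM at the opposite-strand sites within Rbl2, Ccne1 and Ccnd1, with 1 point for each library (open for control, filled for deficient) and a line at the mean of each group of 2. Drosha-deficient libraries lie above their controls in Rbl2 and below them in Ccne1 and Ccnd1, and the Ccne1 site is not listed in the Dicer table. Over all sites of the Drosha table, both deficient libraries lie above both controls at 21.2% and below both at 59.9%.

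In the Dicer comparison, 0 of 4666 sites passed the same thresholds by limma in either direction (0% lower and 0% higher), and 459 had an unadjusted p under 0.05. The sites in Rbl2 and Ccnd1 were thus among sites of which none was called. Of the 3 sites in the Drosha comparison, 2 were called lower, beside a background of 37.6%, and none was called higher, beside 9.57%.

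The gene-naming sites most like those of the 10 genes were taken by the distance of log2(RPM + 0.1) values over the 4 libraries of a table. In the Drosha table, the Rbl2 site was nearest to sites in Gm45080 (distance 0.35), Gle1 (0.57) and Cntrl (0.62). The Ccne1 site was nearest to sites in Rara, Gm6477 and Gm47767, at distances of 0.47 to 0.50. Sites in Slbp, Mirlet7f-1 and Nop56 were nearest to the Ccnd1 site, each at 0.35. In the Dicer table, sites in Mrpl40, Lrpap1 and Cdc26 were nearest to Rbl2 (0.28 to 0.36) and sites in Snrpb, Hspa4 and Ttc39c to Ccnd1 (0.59 to 0.82).

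Other G1/S genes held 7 sites of the Drosha table by position, in E2f4, E2f5, Mdm2 (2 sites), Lin9 (2 sites) and Mycn, of which 4 were called lower, beside 37.6% of all sites, and none higher, beside 9.57%. The largest decrease was opposite Lin9, a subunit of the MuvB core that joins p107 or p130 in the DREAM complex. There, 5.86 and 5.03 RPM in the controls fell to 0.581 and 0.0695 RPM in Drosha-deficient cells (log2 difference −4.02, SE 0.56, limma FDR = 2.76e-05). The value of 0.0695 RPM is under the floor of 3 reads. The Lin9 difference was −2.31 with a pseudocount of 1 RPM and −3.02 without Drosha-deficient replicate 2. Opposite Mycn, values of 7.91 and 6.77 RPM fell to 1.48 and 1.49 RPM (log2 difference −2.22, SE 0.38, limma FDR = 0.000154). The E2f4 site, on the opposite strand, and the E2f5 site, on the strand of the gene, were lower by 1.80 and 1.95 on the log2 scale, with limma FDR values of 0.0232 and 0.007. Both of these calls were lost with centred libraries (−1.20 and −1.35), with a pseudocount of 1 RPM (−0.65 and −0.81) and without 1 library in 3 of 4 cases each, from −2.09 to −0.92 for E2f4 (without either control or deficient replicate 1) and from −2.05 to −1.48 for E2f5 (without either control or deficient replicate 2). The calls opposite Lin9 and Mycn held in each of these settings. The sites within Mdm2, whose product degrades p53, and the same-strand site within Lin9 were not called, with log2 differences of −1.14, −1.17 and −0.83. In the Dicer table, 6 sites in Cks1b, Tfdp2, Mdm2, Lin9 and Mycn were listed and none was called. The site naming Cks1b, a partner of SKP2 in the degradation of p27, had 0.984 and 1.98 RPM in controls and 2.57 and 1.10 RPM in Dicer-deficient cells, so that the groups overlapped.

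At the miR-290 to miR-295 cluster, the main pile-up site of a gene was the one with the highest mean in the controls. In Mir290a, Mir291a, Mir292, Mir291b, Mir294 and Mir295, this site had 78.5 to 704 RPM in the Drosha control libraries. In the Drosha-deficient libraries it had 12.7 to 154 RPM. All 6 were called lower, beside 37.6% of all sites, with log2 differences of −3.76 to −2.26 (limma FDR at most 3.22e-05). The part of this choice by control level in the calls was not tested. Of the 12 sites listed for these genes and Mir106b, 11 were called lower. A second site of Mir294 was not (−1.05, limma FDR = 0.186). In the Dicer comparison the 6 main sites had log2 differences of −0.25 to 0.43 and none was called. The Drosha and Dicer effects differed at all 6 (limma interaction, FDR 0.0232 to 0.0373), beside 4.78% of all shared sites. None of the 6 passed this test when any 1 of the 4 Drosha libraries or Dicer-deficient replicate 1 was left out (limma FDR 0.0692 to 0.143), and 4 passed without Dicer control replicate 2. Mir106b, of the miR-17 family, was called lower in the Drosha comparison (log2 difference −2.03, limma FDR = 0.000549). That call was lost with centred libraries (−1.44) and without Drosha control replicate 1 (−1.77). Mir106b did not pass the test of the difference (limma FDR = 0.117). Inside the targeted genes, sites on the opposite strand were found in Drosha and Dicer1, and both were called lower in the Drosha comparison (log2 differences of −2.81 and −1.58), beside 37.6% of all sites, which does not check the deletions. The Dicer1 call was lost with centred libraries (−0.98), with a pseudocount of 1 RPM (−0.97) and without either Drosha control replicate or Drosha-deficient replicate 1 (−1.68 to −1.45).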

How the data were processed

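Degradome-seq of mouse ESCs (2 libraries in each of 4 groups) and RNA-seq (3 control and 3 Drosha-deficient) were used. The authors trimmed Degradome-seq reads with Trimmomatic 0.38.0, aligned them to GRCm38 with STAR, counted read starts and deposited RPM of mapped reads per library. By the paper's methods, pile-up sites are those called in both controls, but the deposited lists are longer than the sets the paper reports. All listed sites were used. For RNA-seq, the authors deposited mean log2 CPM over all libraries from edgeR 3.26.1. Both kinds of table also hold the authors' fold changes and p-values, which were not used. 

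Sites were tested with limma 3.58.1 (R 4.3.3) on log2(RPM + 0.1) with a mean-variance trend and Benjamini-Hochberg adjustment over all sites of a table. The pseudocount of 0.1 understates changes at low values. The code was tested on made-up values with known differences. Seed matches and lengths came from GENCODE vM21, copies and masked bases from the RefSeq GRCm38.p6 genome (Python 3.11.15, samtools 1.23.1). Genes and lists were chosen with earlier results of these data known. Named were the 10 genes with all their sites, 44 pathway genes, the miRNAs, the targeted genes, markers and the 3 nearest sites. Alternatives changed pseudocount, filter, scaling, threshold, libraries, block, transcript length and match length.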

Additional observations from a re-analysis of the deposited data

How the results depend on the processing

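Counts of called sites depended on scaling and pseudocount. The 1473 lower sites of the Drosha comparison became 548 with a pseudocount of 1 RPM, 871 with libraries centred on the median site (602 higher) and 660 with all 8 libraries in 1 fit over the shared sites. The number of sites at which the Drosha and Dicer effects differed (124) became 410 with centred libraries. Leaving out each library in turn gave 907 to 1519 lower sites for Drosha, 0 to 1 lower and 0 to 13 higher sites for Dicer, and 0 to 969 sites at which the effects differed, with 969 without Dicer control replicate 1, 510 without Dicer-deficient replicate 2, 36 without Dicer control replicate 2 and 0 without each of the other 5. The cause was not tested.

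With a replicate block, 1475 lower and 375 higher sites were called for Drosha, 67 lower and 119 higher for Dicer, and the effects differed at 1320 sites, among them those in Rbl2 (FDR = 0.00163 by limma) and Ccnd1 (FDR = 0.00287 by limma). The labels do not state that numbers mark a shared batch, and deviations of same-numbered libraries correlated across sites at 0.13 (Drosha) and 0.53 (Dicer).

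At the 3 sites, the directions in the Drosha comparison held under every alternative run. A pseudocount of 1 RPM brought Ccne1 to −0.995 and Ccnd1 to −1.21, below the threshold, and with a threshold of 1 Rbl2 was called higher. The Ccnd1 site in the Dicer comparison changed sign with a pseudocount of 1 RPM (−0.018) and ranged from −0.83 to 0.85 over the libraries left out. Where 1 library was left in a group, it was assumed to vary like the other group.

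Requiring 8 bases left 3 of 12 seed matches, and the mean over all transcripts gave 8.5. With the median transcript length the median of the 10 genes was again 3.38 log2 CPM per kb, while that of all protein-coding genes went from 2.61 to 3.11. A count test on recovered reads was not run. With 2 libraries per group, the intervals of single sites were wide.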
